A study of Mus musculus with 6 samples.

Results

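The inflammasome and the interleukin 1 family were followed through 10 genes in the kidneys of MRL/MpJ (MRL) mice and MRL/MpJ-Fas lpr/lpr (LPR) mice. These were the sensors Nlrp3 and Aim2, the adaptor Pycard, the caspases Casp1 and Casp4, the pore-forming protein Gsdmd, the cytokines Il1a, Il1b and Il18, and the receptor antagonist Il1rn. Members were chosen by name, not by their values, though earlier results of these data were known. Every probe that is not a control and carries one of these names in the array annotation was taken, which gave 16 of 56605 probes and 10 of 36870 gene names. Transcriptome analysis was done on whole kidneys of 3 MRL and 3 LPR females at 6 months of age, with 1 single-colour array per mouse. Both groups share the MRL/MpJ background and were kept free of specified pathogens, and no treatment is named for either. LPR mice are homozygous for the lpr mutation of the death receptor gene Fas in all cells of the body and serve as a model of lupus nephritis. The whole organ was used, so leukocytes that entered the kidney were measured together with tubules, glomeruli and vessels. The labels do not tie the mice to litters or cages, and the p-values measure the spread between these 6 mice.

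An inflammasome is a protein complex in the cytosol that forms when a sensor meets a danger signal, such as loss of potassium for NLRP3 or double-stranded DNA for AIM2. The sensor recruits caspase 1 through the adaptor ASC, which is encoded by Pycard, and caspase 1 then cleaves the precursors of interleukin 1 beta and interleukin 18 and opens gasdermin D, whose fragment perforates the plasma membrane. Mouse caspase 11, encoded by Casp4, cleaves gasdermin D after it binds bacterial lipopolysaccharide. All these steps act on proteins, and an array measures only the amount of transcript. In lupus nephritis, mouse models have been used to study NLRP3, AIM2, interleukin 1 and interleukin 18.

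The probes are 60 bases long, and their first 30 bases are shown for the 3 genes whose probes differed from each other in the measurements given below. They read the strand of the transcript to which each probe is assigned, from 5′ to 3′, which for A_66_P121765 is opposite to Pycard.
Il1b A_51_P212782: aggttcctataatatggatgagaattttta
Il1b A_66_P114500: ggaaaagcggtttgtcttcaacaagataga
Il1b A_55_P2720183: aggagctatcacttgaccacatctgttttc
Il1rn A_52_P431159: tttcttgaccattcattttatcacttctaa
Il1rn A_55_P1962400: aacacaccggaagagccccttatagtcacg
Pycard A_51_P438821: acctgcaaggactccctcctccaggccttg
Pycard A_66_P121765: cttattctgggaacaaagaggccaggtaga

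On the build of the array annotation, mm9 (NCBI build 37), the first and second Il1b probes lie 474 bases apart on the minus strand of chromosome 2, at 129190347 to 129190406 and 129190880 to 129190939, and belong to NM_008361. The third Il1b probe lies at 129195465 to 129195524 and is assigned to ENSMUST00000155994. Both Il1rn probes belong to NM_001039701 and lie 972 bases apart on the plus strand of chromosome 2, A_52_P431159 at 24206125 to 24206184, which is position 1593 of the transcript, and A_55_P1962400 at 24205094 to 24205153, position 562. The Pycard probe A_51_P438821 (NM_023258) lies on the minus strand of chromosome 7 at 135136241 to 135136300. The other probe that carries the name Pycard, A_66_P121765 (AK050905), lies 3725 bases away at 135140025 to 135140084 on the plus strand. This is the strand opposite to the Pycard transcript. An annotation of exons on this build was not used here, so exons and untranslated regions are not given.

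Several of the 10 genes are neighbours. The Il1a and Il1b probes lie 64294 bases apart on chromosome 2, and the Casp1 and Casp4 probes 29393 bases apart on chromosome 9. The 250 bases before the transcript start are shown for these neighbours, since 1 of the first pair and both of the second pair rose in LPR mice. They come from RefSeq on the build GRCm38.p6, are written along the transcript, and have motif matches in capitals (TATAAA as a TATA box, TGANTCA as an AP-1 site, and the NF-kB motif).
Il1a, chr2:129309973-129310222, minus strand: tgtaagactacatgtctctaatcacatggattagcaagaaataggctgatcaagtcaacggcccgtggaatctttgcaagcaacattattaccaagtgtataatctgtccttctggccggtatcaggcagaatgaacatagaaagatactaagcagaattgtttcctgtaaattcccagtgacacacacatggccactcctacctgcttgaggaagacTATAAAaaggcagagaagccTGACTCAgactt
Il1b, chr2:129371140-129371389, minus strand: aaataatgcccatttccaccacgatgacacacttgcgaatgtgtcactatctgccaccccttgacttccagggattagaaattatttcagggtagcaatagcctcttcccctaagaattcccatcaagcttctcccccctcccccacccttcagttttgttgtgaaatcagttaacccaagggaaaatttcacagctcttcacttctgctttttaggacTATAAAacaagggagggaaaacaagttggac
Casp1, chr9:5298267-5298516, plus strand: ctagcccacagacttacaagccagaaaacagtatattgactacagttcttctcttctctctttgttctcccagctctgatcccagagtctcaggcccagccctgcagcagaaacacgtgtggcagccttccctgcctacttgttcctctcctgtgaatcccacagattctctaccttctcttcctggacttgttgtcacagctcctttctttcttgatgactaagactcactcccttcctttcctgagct
Casp4, chr9:5308599-5308848, plus strand: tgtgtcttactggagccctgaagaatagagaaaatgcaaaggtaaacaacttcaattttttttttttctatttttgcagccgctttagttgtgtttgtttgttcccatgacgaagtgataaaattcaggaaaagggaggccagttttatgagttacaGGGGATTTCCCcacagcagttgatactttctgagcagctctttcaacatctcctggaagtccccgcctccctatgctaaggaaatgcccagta

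The windows of Il1a and Il1b both held TATAAA, beginning at -32 and -31 relative to the start. Casp4 had matches to the NF-kB motif that overlap each other, beginning at -93, and Casp1 had no match to any motif searched. RefSeq lists 13 such windows for 9 of the 10 genes. On both strands, 3 of these 13 windows held TATAAA, 2 held the AP-1 motif TGANTCA and 3 held the NF-kB motif, 2 of them the overlapping windows of Casp4. Over 32851 windows of 250 bases, 12.4% held TATAAA, 6.75% the AP-1 motif and 3.90% the NF-kB motif. The interferon-stimulated response element, searched as GAAA, any 2 bases and GAAA, was in 0 of the 13 windows and in 2.98% of all windows, and the interferon gamma-activated site TTCNNNGAA in 0 of the 13 and 7.02%. A match describes the letters of the window and does not show that a factor binds there.

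Values below are log2 signals relative to the 75th percentile of the same array, so that 0 stands for that percentile. Arrays of 1 group correlated at r of 0.991 to 0.995 and arrays of different groups at 0.970 to 0.978, across 36007 probes (probes are no independent replicates). Fas, the mutated gene, gave -0.37, -0.28 and -0.06 in MRL 1 to 3 and -0.49, -1.25 and -0.37 in LPR 1 to 3 with its brighter probe, a log2 change of -0.47 that did not pass the threshold (adjusted p = 0.234 from limma). Its other probe, of NM_001146708, was well above background in 3 LPR and 0 MRL mice, which puts the LPR group at least 1.47-fold above the MRL group (adjusted p = 0.0339). The Fas probes thus went opposite ways, and where the mutation lies relative to them was not analysed here. Over all tested probes the median log2 change, LPR minus MRL, was -0.14, and the changes given here are to be read against this shift.

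Of the 10 genes, 8 were higher in LPR kidneys, Nlrp3 did not pass the threshold, and Il1a could not be tested. The share of higher genes among all 25805 tested gene names was 7.12% (limma, Benjamini-Hochberg adjusted p under 0.05, with the brightest tested probe standing for a gene). By probes, 15 of the 16 were well above background on at least 3 arrays and were tested, and 12 were higher, against 6.53% of the 39924 tested probes. None of the 15 was lower, against 6.17% of all tested probes. In limma, 0 were lower at an unadjusted p under 0.05 too, and the methods' t-test gave 0. A probe that is bright in LPR kidneys only had to differ in order to be tested, so the 11 probes above background on all 6 arrays are also given, of which 10 were higher, against 5.45% of 36007 such probes. For 13 of the 16 probes each LPR mouse exceeded each MRL mouse, a pattern shown by 11.0% of all tested probes. The 10 higher probes among the 11 showed it too, against 9.95% of the 36007 probes. Over the 8 genes whose brightest probe was above background on all arrays, the median log2 change was 1.68. In whole kidney, more or fewer cells of a type and more or less RNA per cell cannot be told apart.

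**Figure D1:**
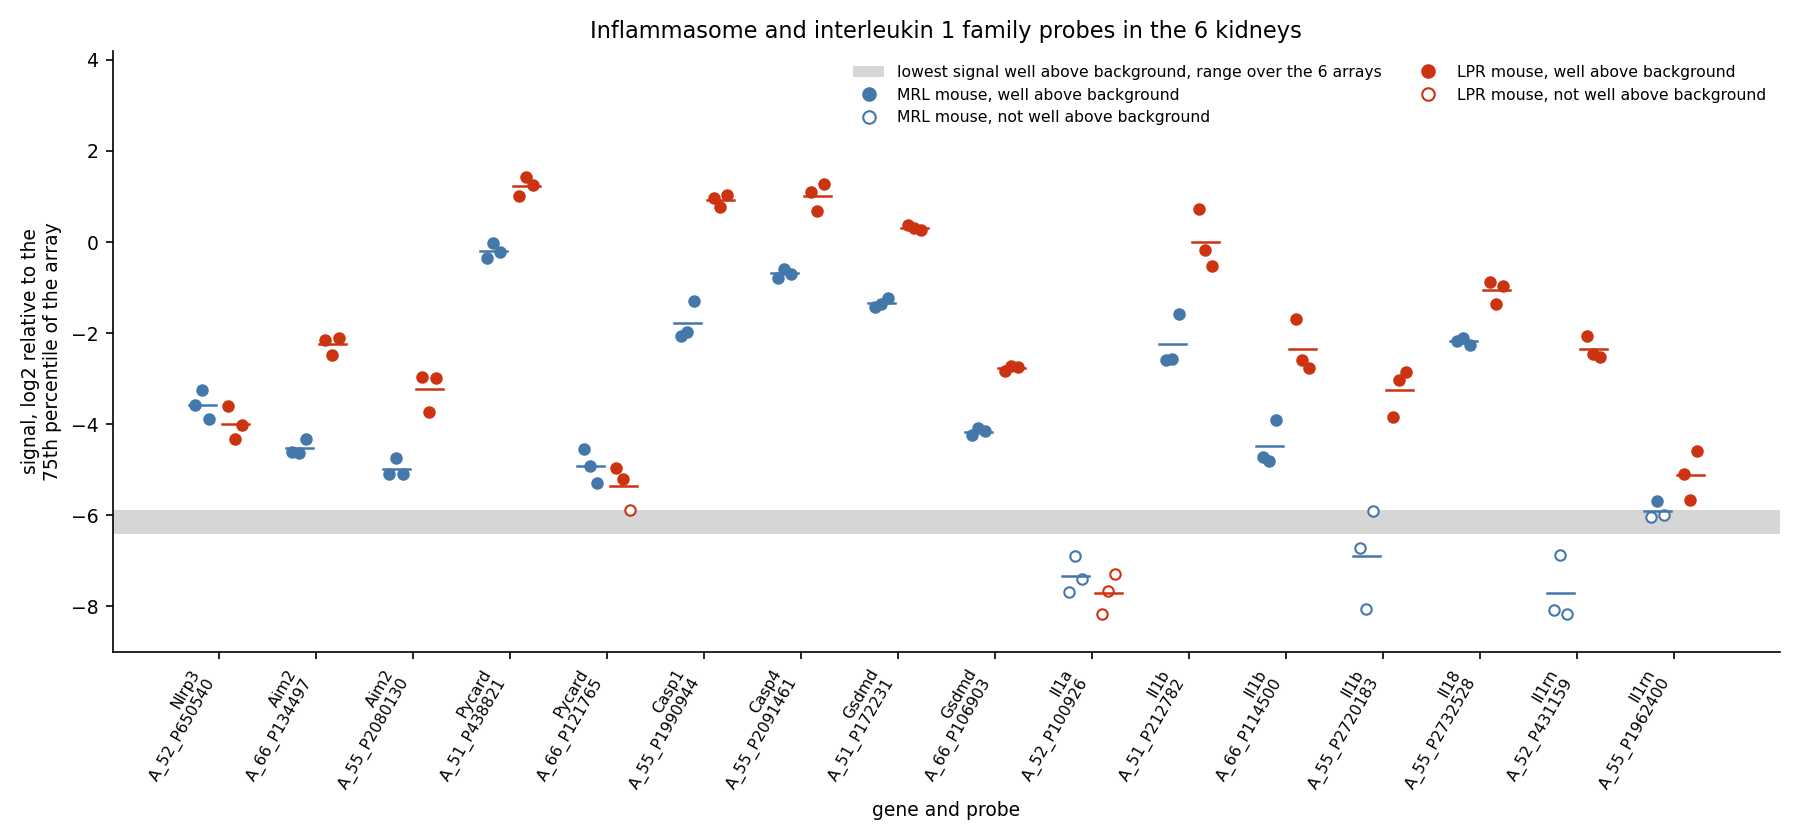
Signal of the 16 probes in each mouse, on the vertical axis as log2 relative to the 75th percentile of the array, with MRL mice in blue, LPR mice in red and a short line at the mean of each group of 3. Filled points were well above background, open points were not, and the grey band spans the lowest signals well above background on the 6 arrays. Both groups overlap for Nlrp3, Il1a and the Pycard probe A_66_P121765, and levels of different probes are not comparable.

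The sensors differed from each other. Nlrp3, which assembles an inflammasome after potassium efflux and other cell stress, was measured by 1 probe (A_52_P650540, NM_145827, chromosome 11, 59378554 to 59378613). It gave -3.58, -3.25 and -3.88 in MRL 1 to 3 and -3.61, -4.33 and -4.02 in LPR 1 to 3. LPR 1 lay among the MRL mice, and the groups overlapped. The log2 change was -0.42, with a standard error (SE) of 0.23, and did not pass the threshold (adjusted p = 0.265 from limma). Among the alternative settings it lay between -0.76 and -0.04 and passed under none.

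Aim2, the sensor of cytosolic double-stranded DNA, was measured by 2 probes of NM_001013779 on chromosome 1. The brighter probe, A_66_P134497 (175385660 to 175385719), gave -4.62, -4.62 and -4.32 in MRL 1 to 3 and -2.16, -2.47 and -2.11 in LPR 1 to 3. All LPR mice exceeded all MRL mice, with a gap of 1.85 between the groups and a range of 0.30 within MRL and 0.36 within LPR. Aim2 rose by 4.84-fold (log2 change 2.27 with SE 0.15, adjusted p = 0.000136). The second probe, A_55_P2080130 (175396036 to 175396095), gave -5.10, -4.75 and -5.10 in MRL mice and -2.96, -3.73 and -2.98 in LPR mice. It rose by 3.38-fold (log2 change 1.76 with SE 0.23, adjusted p = 0.00383), and LPR 2 was the lowest LPR mouse on both probes. Both signals are dim, and with normexp background correction the log2 changes were 1.17 and 0.67, still past the threshold.

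Pycard encodes ASC, the adaptor that links a sensor to caspase 1. The probe on the Pycard strand, A_51_P438821, gave -0.36, -0.03 and -0.21 in MRL 1 to 3 and 1.01, 1.42 and 1.26 in LPR 1 to 3. The groups did not overlap, and the signal rose by 2.69-fold (log2 change 1.43 with SE 0.15, adjusted p = 0.00124 from limma). On the opposite strand, A_66_P121765 gave -4.54, -4.91 and -5.29 in MRL mice and -4.96, -5.20 and -5.89 in LPR mice. These values overlapped, LPR 3 was not well above background, and the log2 change was -0.44 (SE 0.28), which did not pass (adjusted p = 0.334). With the mean of both probes in place of the brighter one, the log2 change was 0.49 and did not pass the threshold (adjusted p = 0.0810).

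Casp1 encodes the protease that matures interleukin 1 beta and interleukin 18. Its probe (A_55_P1990944, NM_009807, chromosome 9, 5307206 to 5307265) gave -2.07, -1.97 and -1.29 in MRL 1 to 3 and 0.97, 0.77 and 1.04 in LPR 1 to 3. LPR mice lay within 0.27 of each other, MRL 3 was the highest control, and the gap between the groups was 2.07. Casp1 rose by 6.53-fold (log2 change 2.71 with SE 0.22, adjusted p = 0.000361).

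Casp4 encodes caspase 11, the receptor for lipopolysaccharide in the cytosol. Its probe (A_55_P2091461, NM_007609, chromosome 9, 5336658 to 5336717) gave -0.78, -0.58 and -0.71 in MRL 1 to 3 and 1.09, 0.68 and 1.27 in LPR 1 to 3. Every LPR mouse exceeded every MRL mouse by at least 1.26. The rise was 3.25-fold (log2 change 1.70 with SE 0.17, adjusted p = 0.000947).

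Gsdmd encodes gasdermin D, the pore-forming substrate of both caspases. The brighter of its 2 probes (A_51_P172231, NM_026960, chromosome 15, 75697536 to 75697595) gave -1.42, -1.37 and -1.23 in MRL 1 to 3 and 0.38, 0.32 and 0.26 in LPR 1 to 3. The SD was 0.10 in MRL mice and 0.06 in LPR mice, the latter being the smallest among the brightest probes of the 9 tested genes. Gsdmd rose by 3.16-fold (log2 change 1.66 with SE 0.10, adjusted p = 0.000124). The other probe, A_66_P106903, is placed over 365 bases (75695520 to 75695884), more than its own 60, and gave -4.23, -4.09 and -4.16 in MRL mice and -2.84, -2.71 and -2.75 in LPR mice. It rose by 2.62-fold (log2 change 1.39 with SE 0.10, adjusted p = 0.000231), and with normexp background correction the log2 change was 0.72.

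The cytokines fell into a measured and an unmeasured set. Il1a encodes interleukin 1 alpha, which is active without cleavage by caspase 1 and is released from dying cells. Its probe (A_52_P100926, NM_010554, chromosome 2, 129125994 to 129126053) gave -7.67, -6.90 and -7.41 in MRL mice and -8.18, -7.66 and -7.28 in LPR mice. On none of the 6 arrays was it well above background, and it was not tested. The lowest signals well above background were -6.41 to -5.88 on the 6 arrays, and all Il1a values lay below them. They are no strict upper bound, since a probe not well above background can lie higher. The Pycard probe A_66_P121765 did so in LPR 3, at -5.89 against -6.08 for that array.

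Il1b, the main secreted interleukin 1 of myeloid cells, was measured by 3 probes. The brightest, A_51_P212782, gave -2.59, -2.57 and -1.58 in MRL 1 to 3 and 0.72, -0.18 and -0.52 in LPR 1 to 3. The groups were 1.07 apart, and MRL 3 and LPR 1 were the highest of their groups. Il1b rose by 4.78-fold (log2 change 2.26 with SE 0.39, adjusted p = 0.0125). The second probe, A_66_P114500, placed the mice in like manner, with -4.72, -4.81 and -3.91 in MRL mice and -1.70, -2.58 and -2.77 in LPR mice. It rose by 4.37-fold (log2 change 2.13 with SE 0.35, adjusted p = 0.00974), and with normexp background correction the log2 change was 1.10. The third probe, A_55_P2720183, stood well above background in 3 LPR and 0 MRL mice, at -3.84, -3.03 and -2.85 in LPR 1 to 3. Its signal was at least 6.47-fold higher in the LPR group (adjusted p = 0.00627), and here LPR 1 was the lowest LPR mouse, whereas it was the highest on the other Il1b probes. The bound sets the LPR mean against MRL signals raised to the lowest signal well above background on each array. With normexp background correction the log2 change of A_55_P2720183 was 0.97, below that bound in log2 (2.695) and still past the threshold.

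Il1b had the widest spread within groups among the brightest probes of the genes measured on all 6 arrays, with an SD of 0.57 in MRL mice and 0.64 in LPR mice for its brightest probe. With the methods' t-test and adjustment, none of the 3 probes passed (adjusted p = 0.0838, 0.0738 and 0.0636). At an unadjusted threshold of 0.05 that test called 12 of the 15 probes higher, against 13 with limma at the same threshold.

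Il18 encodes a cytokine that drives interferon gamma production and is made by epithelial cells and by macrophages. Its probe (A_55_P2732528, NM_008360, chromosome 9, 50389886 to 50389942) gave -2.17, -2.11 and -2.25 in MRL 1 to 3 and -0.87, -1.35 and -0.96 in LPR 1 to 3. MRL mice lay within 0.14 of each other, and LPR 2 was the lowest LPR mouse. Il18 rose by 2.17-fold (log2 change 1.11 with SE 0.15, adjusted p = 0.00390), the smallest of the rises among the 8 genes.

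Il1rn encodes the interleukin 1 receptor antagonist, which binds the interleukin 1 receptor without signalling. The probe near the end of the transcript, A_52_P431159, gave -8.08, -6.88 and -8.18 in MRL 1 to 3 and -2.06, -2.45 and -2.53 in LPR 1 to 3. No MRL mouse and all LPR mice were well above background. By this probe Il1rn was at least 12.2-fold higher in the LPR group (adjusted p = 0.000144 from limma), the highest bound or fold among the 16 probes. With normexp background correction its log2 change was 1.76, below that bound in log2 (3.61) and still past the threshold. The probe at position 562 of the same transcript, A_55_P1962400, gave -6.05, -5.68 and -6.00 in MRL mice and -5.09, -5.66 and -4.58 in LPR mice. It was above background in 1 of 3 MRL mice, LPR 2 lay within 0.02 of MRL 2, and the log2 change was 0.80 (SE 0.27), which did not pass (adjusted p = 0.100). Without LPR 2 this probe passed, with a log2 change of 1.07 (adjusted p = 0.0304). The probes of this transcript thus gave different results, and the cause was not tested.

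**Figure D2:**
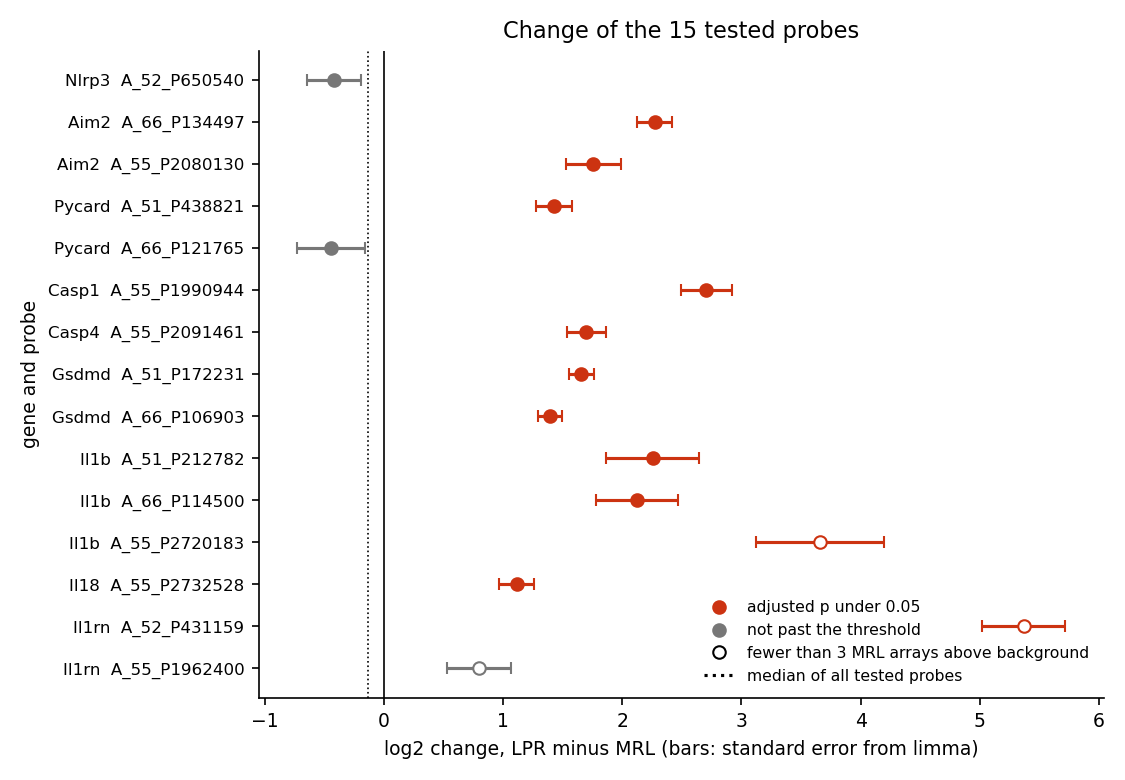
Log2 change of the 15 tested probes, LPR minus MRL, on the horizontal axis, with the standard error from limma as bars, an adjusted p under 0.05 in red and the median over all probes tested, -0.14, as a dotted line. Open points had fewer than 3 MRL arrays above background, so that their fitted value is not a bound. The 12 red points lie at 1.11 or higher and the grey points between -0.44 and 0.80.

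In order of their log2 change, the genes measured on all 6 arrays were Casp1 (2.71), Aim2 (2.27), Il1b (2.26), Casp4 (1.70), Gsdmd (1.66), Pycard (1.43), Il18 (1.11) and Nlrp3 (-0.42). Neighbours in this order were compared by the difference between the pair of genes within each mouse. For Casp1 and Aim2 this difference separated the groups, with a larger change of Casp1 by 0.43 (SE 0.15), though by a gap of only 0.10 between the lowest LPR and the highest MRL mouse. For Il18 and Nlrp3 it separated them as well, by 1.53 (SE 0.17). Aim2 and Il1b, Il1b and Casp4, Casp4 and Gsdmd, Gsdmd and Pycard, and Pycard and Il18 did not differ beyond the spread between mice. Since the order itself came from these values, the differences are a description without a test. The place of Aim2, a dim probe, depends on the background correction. With normexp its log2 change was 1.17. Over all alternatives for single probes, the brightest probes of Il1b, Casp4, Gsdmd and Pycard stayed at or above 1.85, 1.57, 1.48 and 1.21.

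No single LPR mouse led the rise. Among the 12 higher probes, LPR 1 was the highest LPR mouse for 6, LPR 3 for 4 and LPR 2 for 2, and LPR 2 was the lowest for 5, LPR 3 for 4 and LPR 1 for 3. Among the controls, MRL 3 was the highest for 6 of the 12, and it lay 0.66 above the MRL mean for Il1b and 0.48 above it for Casp1. Leaving out each mouse in turn left the number of higher genes at 8 and the number of higher probes at 12 or 13.

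**Figure D3:**
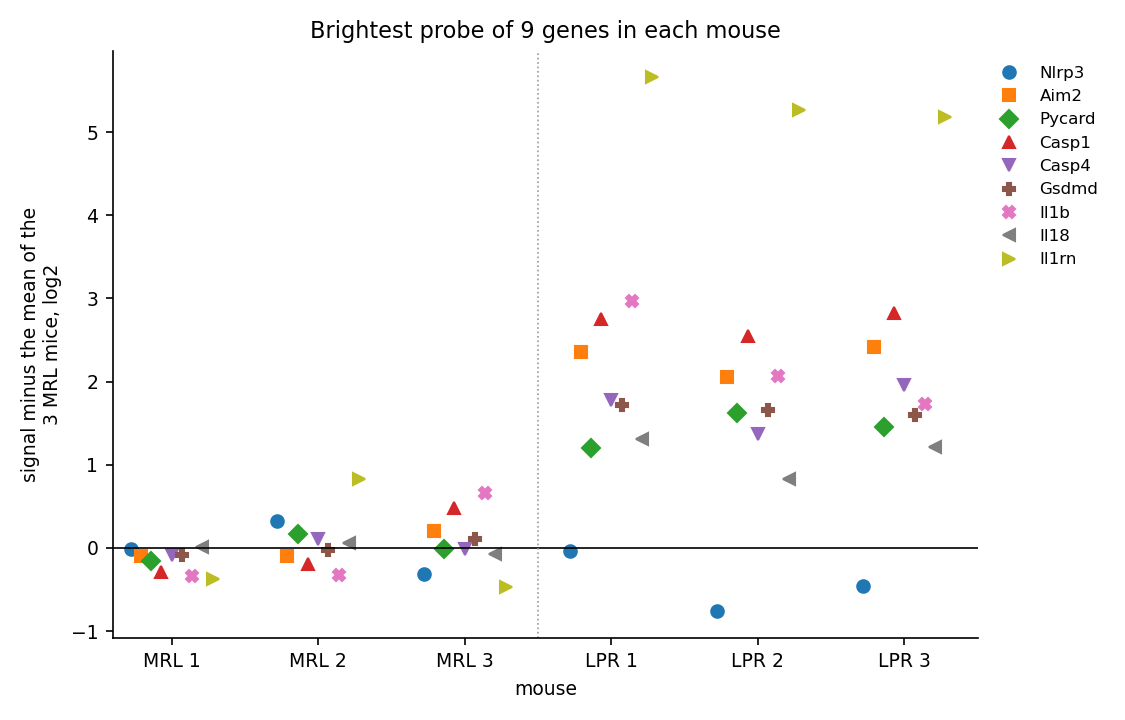
Brightest tested probe of the 9 tested genes in each of the 6 mice, with the signal minus the mean of the 3 MRL mice (log2) on the vertical axis and 1 symbol per gene. In all 3 LPR mice the 8 higher genes lie at 0.83 or above, and Nlrp3 lies between -0.76 and -0.04.

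The arrays stood on 1 slide with a single scan time, in places that did not mix the groups evenly. MRL 1 to 3 and LPR 1 were in row 1, and LPR 2 and LPR 3 in row 2. Column 1 held MRL 1 and LPR 2, and column 2 held MRL 2 and LPR 3. For Casp1 the difference between LPR and MRL was 2.84 within column 1, 3.02 within column 2 and 2.75 within row 1, and for Il18 it was 0.82, 1.15 and 1.30. For Nlrp3 these values were -0.75, -0.78 and -0.04. With the slide row as a block, a change rests on LPR 1 alone against the MRL mice, since row 2 held no MRL mouse. For the brightest Il1b probe this log2 change was 2.97. With the slide column as a block, a change rests on the pairs within columns 1 and 2. Such fits thus cannot separate slide position from single mice.

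Other genes of the pathways were taken from lists with 76 genes, of which 65 were tested. In limma, 25 were higher, 3 were lower and 37 did not pass, with a median log2 change of 0.21. Among all tested gene names, 7.12% were higher and 5.47% lower.

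Among other ligands of the interleukin 1 family, 1 of 4 tested genes was higher. Il36a, which activates the interleukin 36 receptor on epithelial and dendritic cells and is named Il1f6 on the array, stood above background in 3 LPR and 0 MRL mice, with a signal at least 6.04-fold higher in the former (adjusted p = 0.000657). With normexp background correction, which compresses dim signals, its log2 change was 0.88, below that bound and still past the threshold. Il33, an alarmin stored in nuclei, gave -0.55 ± 0.25 (SD, n = 3) in MRL mice and 0.11 ± 0.36 in LPR mice and did not pass (adjusted p = 0.0898), but passed without LPR 2 (adjusted p = 0.0407). Il36g and Il1f10 were not well above background on any array. No gene of this list was lower in limma, and 1 was at an unadjusted p under 0.05.

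Of 8 tested receptors and decoys, 3 were higher, and 2 of these bind a cytokine without passing on a signal. Il1r2, a decoy receptor for interleukin 1, rose by 3.96-fold from -4.74 ± 0.42 to -2.76 ± 0.32 (SD, n = 3, adjusted p = 0.00299 from limma), with a log2 change of 0.86 instead of 1.99 under normexp. Il18bp, a secreted protein that neutralizes interleukin 18, rose by 3.83-fold from -1.13 ± 0.12 to 0.80 ± 0.16 (adjusted p = 0.000140). Il18r1, the ligand-binding chain of the interleukin 18 receptor, rose by 2.90-fold (adjusted p = 0.0157), and it did not pass without LPR 3 (adjusted p = 0.0563), without MRL 2 (adjusted p = 0.0532) or with the methods' t-test after adjustment. Il1r1, the signalling receptor for interleukin 1, gave -1.47 ± 0.03 in MRL mice and -1.38 ± 0.25 in LPR mice (adjusted p = 0.710). By its brightest probe no gene of this list was lower, also at an unadjusted p under 0.05, while 1 of 2 tested probes of Il1rap, the accessory chain of the interleukin 1 receptor, was lower.

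Of 13 tested genes of receptor signalling, 2 were higher in limma. Nfkbiz, an inhibitor-like cofactor of NF-kB, rose by 1.81-fold (adjusted p = 0.0215), and Nfkb1, which encodes a subunit of NF-kB, rose by 1.53-fold (adjusted p = 0.00743). Nfkb1 did not pass with the slide column or the slide row as a block (adjusted p up to 0.129). Myd88, the adaptor of interleukin 1 and Toll-like receptors, was at 0.45 ± 0.08 in MRL mice and 0.93 ± 0.18 in LPR mice (SD, n = 3) and did not pass (adjusted p = 0.0513). Irak3, a brake on this signalling, was at -3.11 ± 0.70 and -1.99 ± 0.12 and did not pass with its brightest probe (adjusted p = 0.0678), while 1 of its 3 tested probes was higher, and the brightest passed without MRL 3 (adjusted p = 0.00400). Nfkbiz did not pass without LPR 1, LPR 3, MRL 1 or MRL 2 (adjusted p between 0.0575 and 0.0738). By its brightest probe none of the 13 was lower, also at an unadjusted p under 0.05. Among their other probes, 1 of 3 tested for Map3k7 was lower and 1 of 2 for Rela was higher.

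Among other sensors and adaptors, 7 of 14 tested genes were higher and 0 were lower in limma, with 1 lower at an unadjusted p under 0.05. Mefv, which encodes the sensor pyrin, rose by 13.5-fold from -5.50 ± 0.17 to -1.74 ± 0.35 (SD, n = 3, adjusted p = 5.57e-05), and 2 of 3 MRL arrays were well above background for it. Its log2 change was 1.81 instead of 3.76 with normexp. Naip6, for which 1 of 3 MRL arrays was well above background, had a fitted change of 5.18-fold (adjusted p = 0.00988), or 0.78 instead of 2.37 in log2 with normexp, and did not pass with the methods' t-test after adjustment (adjusted p = 0.0750). Naip2 rose by 3.96-fold (adjusted p = 0.00244), while Naip5 gave 4.60 ± 0.27 and 4.86 ± 0.12 and did not pass (adjusted p = 0.324). Naip proteins sense bacterial flagellin and secretion needles, their genes are close copies of each other, and a signal may be shared between them. Nlrc4, the adaptor of the Naip proteins, differed by 0.07 in log2 (SE 0.50, adjusted p = 0.942), and MRL mice differed widely from each other (SD 1.02). Nlrp1b rose by 2.87-fold (adjusted p = 0.0124), with a log2 change of 0.64 instead of 1.52 under normexp, and did not pass with the methods' t-test after adjustment (adjusted p = 0.0779). Nod2 rose by 1.84-fold (adjusted p = 0.0250), without passing when LPR 1, LPR 2, LPR 3 or MRL 2 was left out (adjusted p between 0.0535 and 0.0765). Nlrp6, a sensor of epithelial cells, gave -0.32 ± 0.18 and -0.53 ± 0.04 and did not pass (adjusted p = 0.282).

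Of 17 tested activators and regulators of inflammasomes, 10 were higher and 0 were lower, also at an unadjusted p under 0.05. Gbp2, an interferon-induced GTPase that attacks microbial membranes, rose by 13.3-fold from -2.20 ± 0.09 to 1.54 ± 0.25 (SD, n = 3, adjusted p = 2.04e-05 from limma). Ifi202b, which encodes a DNA-binding protein that counters AIM2 in mice, rose by 4.57-fold (adjusted p = 9.39e-05), and Ifi204, a DNA sensor of the same family, by 2.85-fold (adjusted p = 0.00410). P2rx7, the ATP-gated channel through which potassium leaves the cell before NLRP3 assembles, rose by 3.43-fold (adjusted p = 0.00213). Casp12 rose by 2.97-fold (adjusted p = 0.00208). With normexp the log2 changes of P2rx7 and Casp12 were 1.01 and 0.98 instead of 1.78 and 1.57. Gbp5 did not pass with its brightest probe, while 1 of its 2 tested probes was higher. Nek7, the kinase that binds NLRP3, was at 2.15 ± 0.16 in MRL mice and 2.10 ± 0.16 in LPR mice (adjusted p = 0.841), and Txnip at 4.42 ± 0.07 and 4.04 ± 0.53 (adjusted p = 0.357).

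None of the other gasdermins tested was higher. Of 9 tested genes for gasdermins and membrane rupture, 2 were higher and 3 were lower in limma, and the median log2 change was -0.65. Both higher genes encode granzymes, proteases of cytotoxic lymphocytes that can cut gasdermins. For Gzmb no MRL array was well above background, and the LPR group was at least 11.8-fold higher (adjusted p = 7.47e-06), with a log2 change of 1.59 under normexp, which is below that bound, and Gzma rose by 5.80-fold (adjusted p = 0.00147). The lower genes were Gsdmc4 with a log2 change of -0.95 (adjusted p = 0.0382), Gsdmc with -0.65 (adjusted p = 0.0389) and Pjvk, named Dfnb59 on the array, with -0.69 (adjusted p = 0.0267). Gsdmc2 and Gsdmc3 had changes of -0.76 and -0.75 that did not pass (adjusted p = 0.0570 and 0.0621), and the Gsdmc genes are close copies. Without LPR 1 both passed (adjusted p = 0.00457 and 0.0140), whereas Gsdmc and Gsdmc4 passed in no fit that left out any other mouse (adjusted p between 0.0629 and 0.117) and Pjvk not without LPR 1, LPR 3, MRL 1 or MRL 3 (adjusted p between 0.0725 and 0.0865). Ninj1, which ruptures the membrane after pores form, was at 4.73 ± 0.01 and 4.99 ± 0.17 (SD, n = 3) and did not pass (adjusted p = 0.183).

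**Figure D4:**
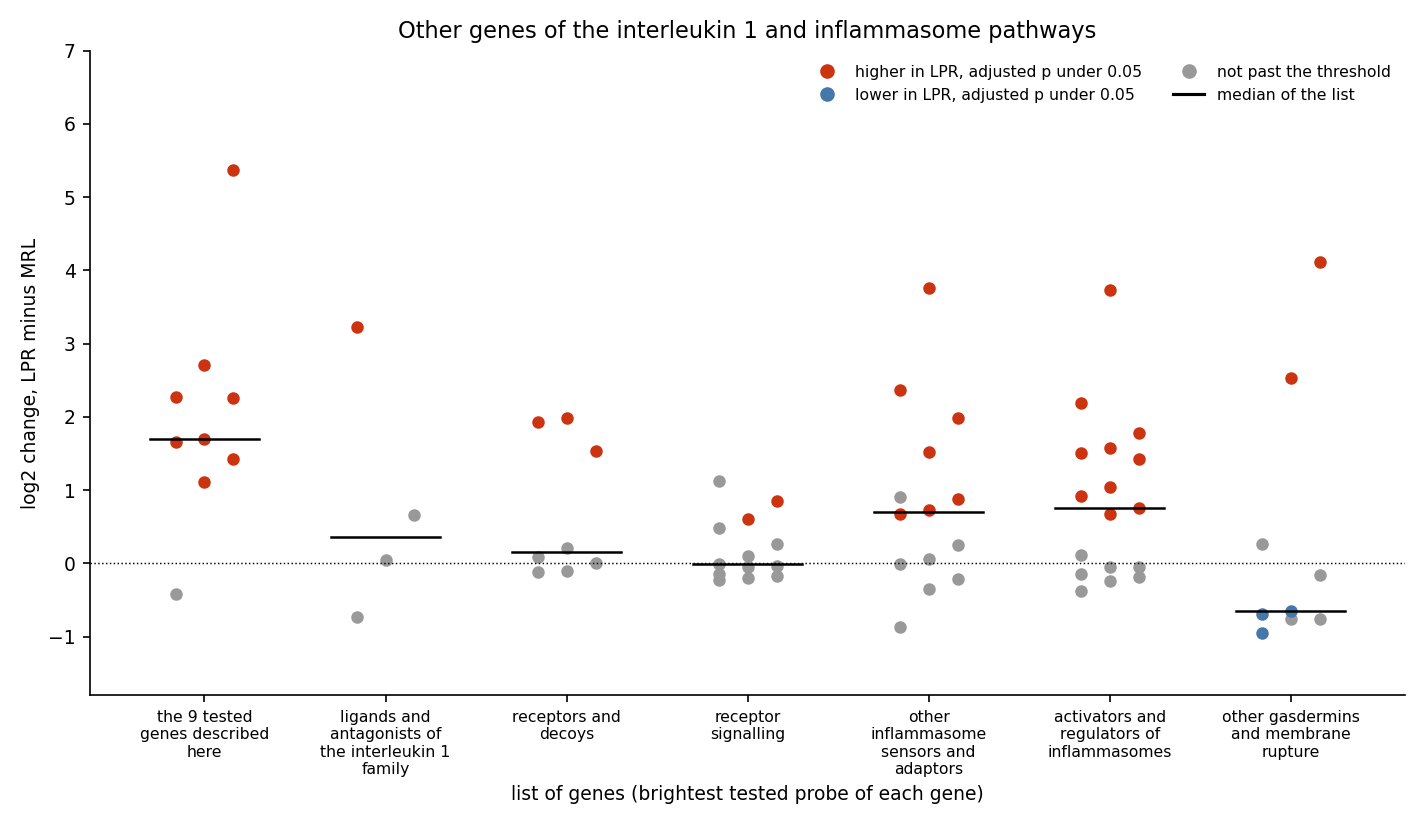
Log2 change, LPR minus MRL, of the 9 tested genes and of 6 lists of other pathway genes, each gene by its brightest tested probe, with higher genes in red, lower genes in blue, genes that did not pass in grey and the median of a list as a black line. For Il1rn, Il36a and Gzmb the fitted value is drawn, which is not a bound. Lower genes appear in the list of gasdermins alone, 3 of 9.

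Markers of leukocytes moved in the same direction as the 8 genes. Of 15 macrophage and monocyte markers, 13 were higher and 0 lower in limma (1 lower at an unadjusted p under 0.05), and their summed signal was 104 to 122 in MRL mice and 258 to 279 in LPR mice, in units of the 75th percentile of the array. Of these, Ly6c2 rose by 1.41-fold, Lyz2 by 8.88-fold and Csf1r by 1.46-fold, the last with 1 of its 2 tested probes higher. The markers of this list that did not pass in limma were Itgam (log2 change -0.09, adjusted p = 0.783) and Mertk (log2 change -0.47, adjusted p = 0.149). T cell markers were higher for 8 of 9 genes, with summed signals of 3.53 to 4.24 and 19.3 to 22.5. B cell and plasma cell markers were higher for 6 of 8 genes and lower for 1, with summed signals of 3.00 to 5.10 and 49.5 to 97.3. The lower one was Ms4a1, of which 1 of 2 tested probes was higher and 1 lower. Dendritic cell markers were higher for 5 of 8, among them Flt3, of which 1 of 2 tested probes was higher and 1 lower. Their summed signals of 93.0 to 112 and 92.4 to 101 overlapped, and Siglech, the brightest, did not pass (log2 change -0.10, adjusted p = 0.586). Siglech set almost the whole of these sums, at 6.64 in MRL mice, where the next brightest marker, Itgax, was at -2.73. The overlap thus says little about the other markers of this list.

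Neutrophils, which also make interleukin 1 beta, were less uniform. Of 12 neutrophil markers 4 were higher, or 2 without MRL 1 or without MRL 3, and 0 were lower in limma. At an unadjusted p under 0.05, 9 were higher and 0 lower, and in 9 all LPR mice exceeded all MRL mice. The summed signals of 41.6 to 55.2 in MRL mice and 48.0 to 52.3 in LPR mice overlapped. These sums were carried mostly by Csf3r, at 5.46 in MRL mice, where the next brightest marker, Ly6g, was at 0.01. Their overlap thus says little about the other markers. S100a9, an alarmin of neutrophils and monocytes, rose by 4.85-fold (adjusted p = 0.0105), whereas Csf3r gave 5.46 ± 0.23 and 5.40 ± 0.10 (SD, n = 3, adjusted p = 0.779) and Ly6g 0.01 ± 0.16 and 0.37 ± 0.10 (adjusted p = 0.101). Markers of kidney epithelium were higher for 0 and lower for 2 of 15 genes (1 higher and 7 lower at an unadjusted p under 0.05), with summed signals of 946 to 1005 and 754 to 829, and those of endothelium were lower for 1 of 5. Platelet and red cell markers were higher for 1 of 6, Pf4, and lower for 0, with a median log2 change of 1.62. Their summed signals of 46.6 to 342 and 260 to 480 overlapped. The red cell gene Alas2 differed widely between mice, from -2.84 in MRL 2 to 2.35 in LPR 3, and did not pass. All markers were well above background on some array, and Umod and Slc34a1, which define segments of the kidney tubule, were among the brightest epithelial ones. The part of these markers in the changes of the 8 genes was not tested.

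**Figure D5:**
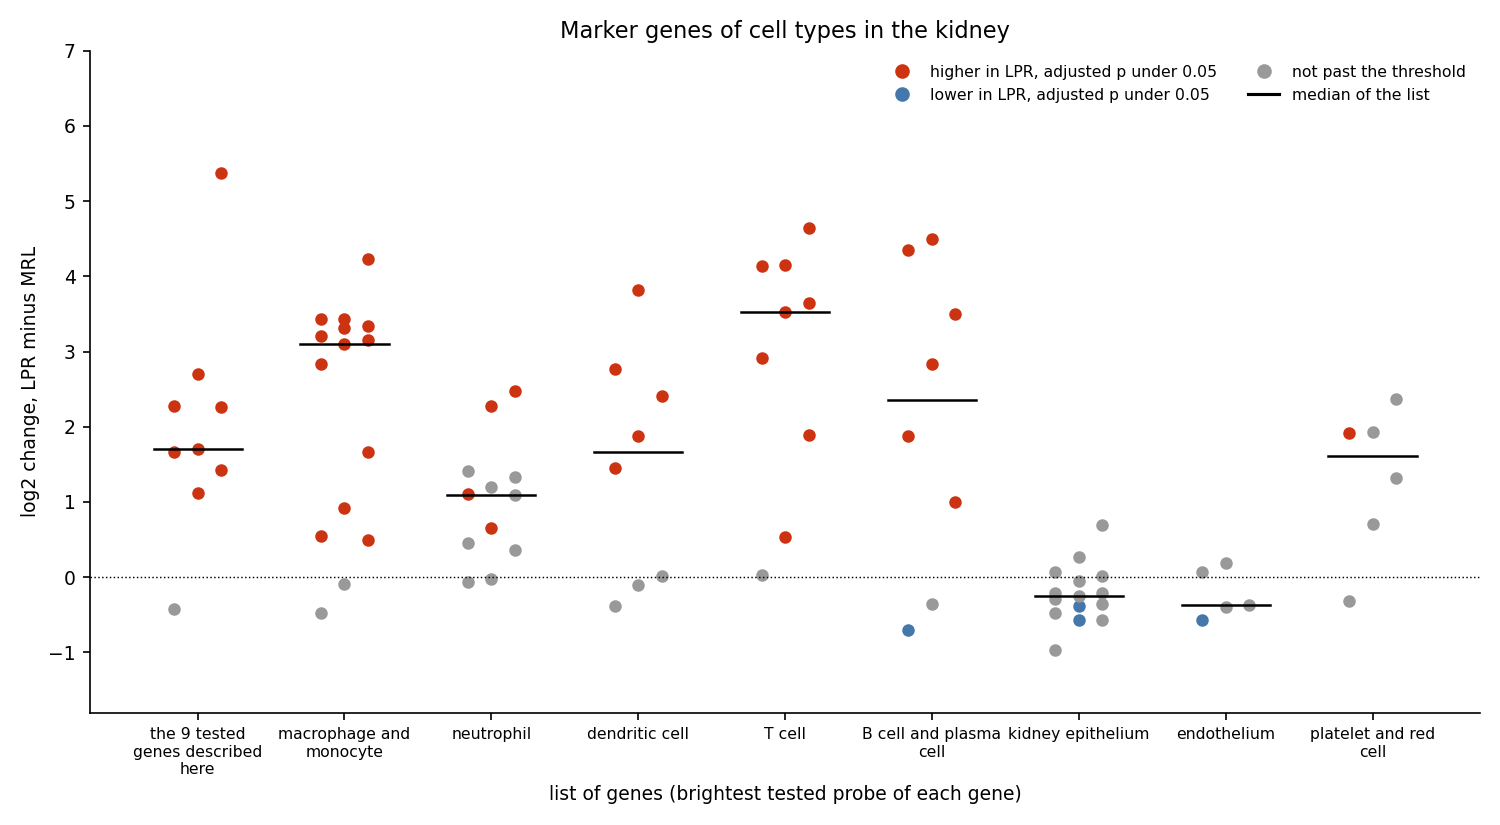
Log2 change, LPR minus MRL, of the 9 tested genes beside marker genes of 8 cell types, drawn as in the plot of the pathway lists. The median is 3.53 for T cell markers, 1.09 for neutrophil markers and -0.26 for kidney epithelium markers.

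The probes of other genes whose 6 values lay closest to a member were sought by the root mean square difference over the 6 mice, after the MRL mean of each probe was subtracted, among 29005 probes with a RefSeq symbol that were above background on all arrays. Closest to Casp1 were Ptprc (0.112), the common antigen of leukocytes, and Lilra6 (0.114). Aim2 was closest to both probes of Apobec1 (0.0366 and 0.0544), Casp4 to Tlr13 (0.0814) and Dnah8 (0.100), and Gsdmd to Tgfbi (0.0568) and Bcl2l15 (0.0672). Pycard was closest to Isg15 (0.0809), an interferon-induced gene, and Adamts2 (0.0920), and Il18 to Gbp10 (0.0409) and Inpp4b (0.0637). For Il1b the closest probes, of Slc2a6 (0.287) and Apoc2 (0.301), were farther away. For Il1rn no MRL mouse was well above background, and no likeness is given. Nlrp3 was closest to D630045J12Rik (0.0605) and Gm7160 (0.0724). These values describe likeness over 6 mice and carry no test. Since the MRL mean was subtracted, a small value rests in large part on a like size of change between the groups. The log2 change was 2.27 for Aim2 and 2.26 for its closest probe. Whether such genes share a cell type or a regulator was not tested.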

How the data were processed

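Cy3-labelled RNA of 6 kidneys, 3 MRL and 3 LPR, was hybridized to 6 Agilent SurePrint G3 mouse arrays. RNA was isolated with Trizol according to the paper and with an RNeasy kit according to the labels. The authors deposited background-subtracted spot intensities, which come from Agilent Feature Extraction 12.0.3.1 and were not normalized between arrays. The authors also deposited a table of the ratio of each intensity to the 75th percentile of the array, which served as an alternative.

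Each array held 59305 spots that are not controls. Intensities were taken to log2, each array's 75th percentile (706 to 942) was subtracted, 73 to 90 outlier spots per array were left out, and spots of 1 probe were averaged. Probes well above background on at least 3 of 6 arrays were tested with limma 3.58.1 in R 4.3.3 (two-sided, Benjamini-Hochberg over 39924 probes, threshold 0.05), with no covariate. The brightest tested probe stands for a gene. Between 69.6% and 73.5% of spots were well above background and 0 were saturated. Precision is limited by the number of arrays, and an exact test of 3 against 3 mice cannot go below p = 0.1, so none is given.

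The genes and lists were chosen with earlier results of these data known. Named were all probes of the 10 genes, up to 5 genes of each pathway list with the largest change past the threshold, genes singled out as lower or not passing, and the brightest markers. Markers and pathway genes carry the names of the array annotation, and older names were matched. Where no MRL array was well above background, the fold is a bound. It rests on the lowest signal well above background and on the main background correction, so it is not a strict limit.

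The tests were also run on simulated data with known changes and the spread of these probes. Limma recovered 92 of 100 changes of the larger size and 48 of 100 of the smaller, with 6 false calls. The adjusted t-test recovered 71 of all 200. A true change of the smaller size can therefore fail to pass. Alternatives were background correction (normexp, offset 50), scaling, the deposited ratios, the filter on dim probes, a floor, outlier spots, an intensity trend, the replicate number, slide row or column as a block, the mean of a gene's probes, the methods' t-test, and leaving out each mouse. Promoter windows are from RefSeq. Figures were drawn with matplotlib 3.10.9.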

Additional observations from a re-analysis of the deposited data

How the results depend on the processing

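Direction was kept by each of the 15 tested probes, which belong to 9 of the 10 genes, under each alternative run. Of 296 tests of single probes, 291 kept their side of the threshold. The 5 exceptions were the 3 Il1b probes under the methods' t-test after adjustment, the third Il1b probe with the slide row as a block, and the dim Il1rn probe without LPR 2. The number of higher genes was 7 with the mean of a gene's probes, with only probes above background on all arrays and with the adjusted t-test, and 8 otherwise. Normexp background correction, which compresses dim signals, moved the fitted log2 change of the Il1rn probe A_52_P431159 to 1.76 and that of the Il1b probe A_55_P2720183 to 0.97. Both were past the threshold but below the bounds given for these probes. The cause of a lost call was not tested.

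Replicate numbers were not taken to pair the mice. The correlation of deviations was 0.146, 0.0291 and 0.0166 between same-numbered mice and -0.083 to 0.058 between differently numbered mice. With 3 mice per group these values cannot settle whether mice were paired. The replicate block left 8 higher genes and 12 higher probes, with 1117 lower probes overall against 2462 without it.

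Counts over wider lists moved more. Those with the slide row as a block rest on LPR 1 alone against the MRL mice, and those with the slide column on 2 pairs of mice. All higher probes, 2606 in the report, were 1458 with the slide row as a block and 1736 with the adjusted t-test, and 1958 to 2370 without 1 mouse. Lower probes were 1093 without a filter, 4498 with normexp, 973 with the slide column and 463 with the slide row as a block, 1385 with the adjusted and 7175 with the unadjusted t-test, and 760 to 2269 without 1 mouse. The share of calls that were higher was 51.4% in the report and 36.0% with normexp. Lower pathway genes, 3 in the report, were 5 with an intensity trend, with normexp, with probes above background on all arrays and with the unadjusted t-test, 1 with the replicate block or the slide row, 0 without a filter and with the adjusted t-test, and 0 to 4 without 1 mouse. Higher neutrophil markers, 4 in the report, were 2 without a filter, 0 with the slide row and with the adjusted t-test, 7 with the unadjusted t-test, and 2 to 4 without 1 mouse. Lower marker genes, 4 in the report, were 7 with an intensity trend or normexp, 2 with a median shift, quantile normalization, the slide row or the deposited ratios, 1 with the replicate block, the slide column or the adjusted t-test, 10 with the unadjusted t-test, 0 without a filter, and 0 to 2 without 1 mouse. Calls of Gsdmc were lost in 10 of 20 alternatives, of Pjvk and Trim30a in 9 each, of Gsdmc4, Nod2, Nfkbiz and Nlrp1a in 8 each, and of Cd14 in 6. Trim30a, Nlrp1a and Cd14 are counted among the higher pathway genes.

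Small changes of genes that did not pass turned sign. Nlrc4 was -0.11 with normexp and -0.37 to 0.63 without 1 mouse, Il1r1 -0.013 with the slide column as a block and -0.025 to 0.22 without 1 mouse, and Nek7 0.050 with the slide row as a block and -0.13 to 0.047 without 1 mouse. Signals at background, as for Il1a, limit what these arrays can show.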
